A study of Homo sapiens with 6 samples.

Results

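The transcripts that carry a cell from G1 into S phase were followed through 10 genes chosen by name. They were the D-type cyclins CCND1, CCND2 and CCND3, the E-type cyclins CCNE1 and CCNE2, the kinases CDK4 and CDK6, and the CDK inhibitors CDKN1B, CDKN2B and CDKN2C. All 10 were among the 23228 genes of the count tables, and 9 of them had enough counts to be tested, among 13408 tested genes in all. D-type cyclins are made in response to growth signals and bind CDK4 or CDK6, and the active kinases start the phosphorylation of the retinoblastoma protein, which holds E2F transcription factors in check. Released E2F induces the E-type cyclins, which activate CDK2 and take the cell into S phase. The INK4 inhibitors CDKN2B (p15) and CDKN2C (p18) bind CDK4 and CDK6 themselves, whereas CDKN1B (p27) binds cyclin-CDK complexes and restrains mainly those of CDK2.

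RNA-seq was performed on HEC-1-A cells, an established human endometrial adenocarcinoma line, grown in McCoy's 5A medium with 10% FBS. A group of 3 libraries came from cells given SMIP34, a small molecule that binds PELP1, at 20 µM for 24 h. The other 3 libraries were controls, which received vehicle according to the methods of the study and only the culture medium according to their labels. All 6 libraries were of 1 cell line, and the labels do not say whether the libraries of a group came from separate cultures, so the p-values measure the spread between these libraries, which may be technical. The libraries held from 19562711 to 22014835 counts each. The 7 epithelial marker genes examined, such as EPCAM and KRT8, summed to between 3944 and 4066 CPM (counts scaled to library size) in control and between 3882 and 3913 CPM in treated libraries. Markers of leukocytes, endothelium and stroma summed to at most 5.32 CPM in any library, mostly from COL1A1. COL1A1 itself rose from 2.96 to 4.19 CPM (log2 fold change 0.50, edgeR adjusted p = 0.0151), while PTPRC, PECAM1, VWF and COL3A1 stayed too low to be tested. Of the epithelial markers, CLDN4 rose (0.19 on the log2 scale) and KRT8, KRT19 and PAX8 fell, with KRT19 at -0.17. Their part in the other results was not tested. In bulk RNA, fewer cells with a transcript and less of it in each cell cannot be told apart.

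SMIP34-treated cells had more mRNA of CCND1, CCND3, CCNE2 and CDK6 and less of CDK4 than control cells. The estimated increases were 8.63% for CCND1, 12.1% for CCND3, 15.9% for CCNE2 and 43.1% for CDK6, while CDK4 fell by 7.78%. Differences in CCNE1, CDKN1B, CDKN2B and CDKN2C did not pass the test. The calls on CCND1, CCND3 and CDK6 held in all 18 alternative analyses, that on CDK4 in 16 and that on CCNE2 in 11. The call on CCNE2 was lost with DESeq2, the method that the study used. CDK4 lost its call with offsets on exon length, alone or with GC content. As tested, 4 of the 9 tested genes were higher and 1 was lower when edgeR's quasi-likelihood test was held to an adjusted p-value below 0.05, against 17.4% of all tested genes that were higher and 17.2% that were lower. The fold limit of the study, an absolute log2 fold change over 0.5, was passed by CDK6 alone among the 9, and by 3.31% of all tested genes (1.44% higher and 1.87% lower). The median log2 fold change was 0.12 over the 9 genes and -0.0022 over all genes tested. Control and treated libraries did not overlap in 7 of the 9 genes, 6 higher and 1 lower with SMIP34, as was so for 44.5% of all tested genes (22.6% higher and 21.9% lower).

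**Figure D1:**
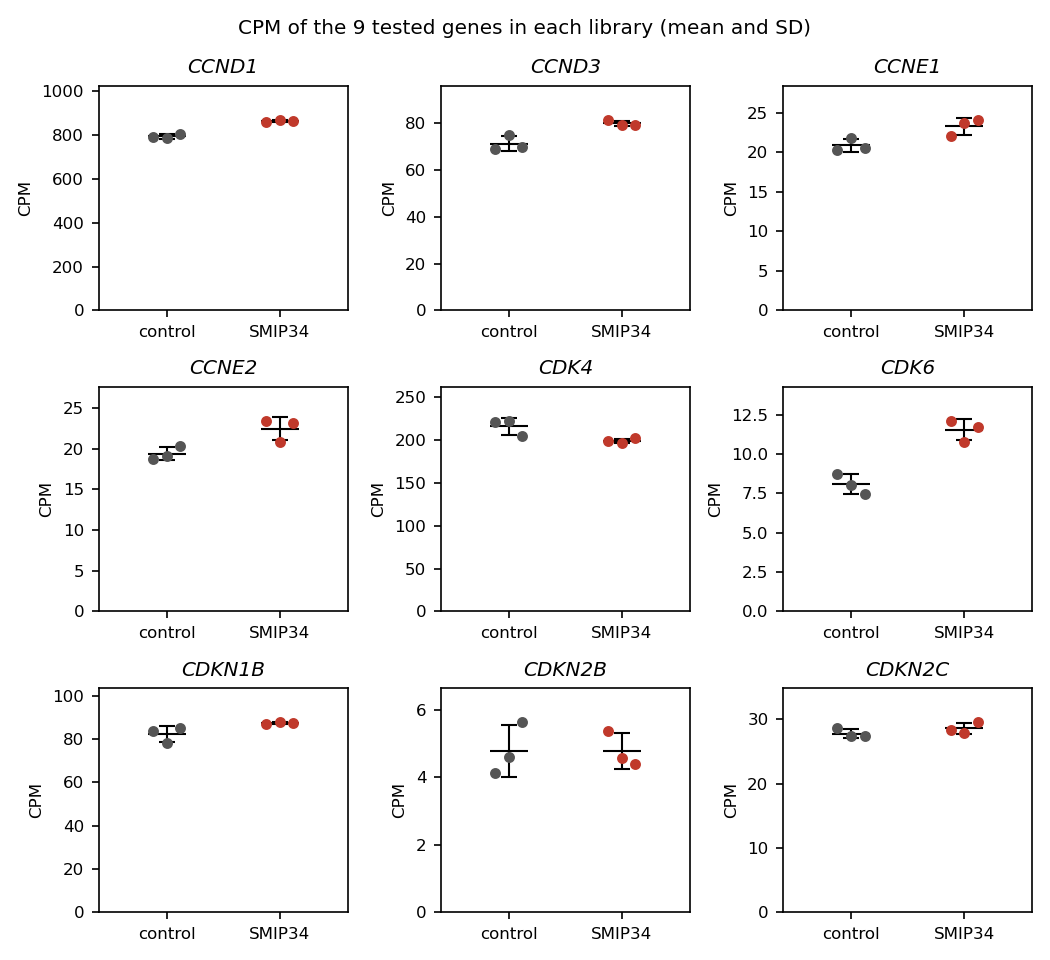
Each panel plots the CPM of a gene in the 3 control (grey) and 3 SMIP34-treated (red) libraries, with the mean and SD as black bars and the vertical axis from 0. The groups are apart in 7 panels and overlap in CDKN2B and CDKN2C, and the steepest step is that of CDK6, from a mean of 8.07 to 11.5 CPM.

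Levels of different genes were compared as RPKM, which divides the CPM by the exon length in kilobases. The D-type cyclin transcripts were almost entirely CCND1, with a mean of 185 RPKM in control and 201 RPKM in treated cells. CDK4 was next, at 150 and 138 RPKM, followed by CDKN1B (34.1 and 36.2 RPKM) and CCND3 (29.4 and 32.9 RPKM). Below these came CDKN2C (11.2 and 11.5 RPKM), CCNE1 (10.7 and 11.9 RPKM) and CCNE2 (7.11 and 8.25 RPKM). CDKN2B stood at 1.20 RPKM in both groups and CDK6 at 0.686 and 0.980 RPKM. Neighbours in this order had separate ranges over the 3 libraries of each group, except CDKN2C and CCNE1, whose ranges overlapped in both groups.

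Among the D-type cyclins, CCND1 (chromosome 11 of hg19, from 69455873 to 69469242, 5 exons) is the member most often amplified in tumors. It was at 791, 786 and 808 CPM in control replicates 1, 2 and 3 and at 859, 869 and 863 CPM in SMIP34 replicates 1, 2 and 3. Every treated library lay above every control. The log2 fold change was 0.12 (SE 0.025, edgeR quasi-likelihood adjusted p = 0.000437), and it stayed between 0.085 and 0.14 and past the adjusted p-value in all 18 alternative analyses. In 3 of the 6 libraries its count held fractions from reads that matched several places or genes.

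CCND3 (chromosome 6, from 41902671 to 42016610, 6 exons), the D-type cyclin best known from lymphoid cells, was at 69.0, 74.8 and 69.7 CPM in control replicates 1, 2 and 3. The treated libraries, at 81.2, 79.2 and 79.1 CPM, were all higher. Its log2 fold change of 0.16 (SE 0.040, edgeR quasi-likelihood adjusted p = 0.00201) passed in each of the 18 alternatives. CCND1 and CCND3 rose by similar proportions. The share of CCND3 in the RPKM of the D-type cyclins was 13.7% ± 0.635 in control and 14.1% ± 0.239 in treated cells (SD, n = 3 each). The difference was smaller than the SD in control but larger than that in treated cells, and the groups overlapped (exact two-sided permutation test, p = 0.4, with a smallest possible p of 0.1).

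CCND2 (chromosome 12, from 4382902 to 4414522) had almost no reads. Its count was 1 in control replicate 1, 1 in SMIP34 replicate 1 and 0 in the other 4 libraries. A count of 0 allows up to 3 counts, or between 0.138 and 0.144 CPM in those 4 libraries. It was left out by the filter on low counts, and no difference could be detected at this depth.

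The E-type cyclins, which bind and activate CDK2, had similar CPM, while per exon length CCNE1 was the higher. CCNE1 (chromosome 19, from 30302901 to 30315215, 12 exons) was at 20.2, 21.8 and 20.5 CPM in control and 22.0, 23.7 and 24.0 CPM in SMIP34 replicates 1, 2 and 3. The groups were separated by only 0.213 CPM, and the log2 fold change of 0.15 (SE 0.065, edgeR quasi-likelihood adjusted p = 0.0677) did not pass. Its 95% interval ran from an increase of 1.43% to one of 22.2%, before any adjustment. CCNE2 on chromosome 8 was at 18.8, 19.1 and 20.3 CPM in control and 23.4, 20.9 and 23.2 CPM in treated replicates 1, 2 and 3. All treated libraries were higher, with SMIP34 replicate 2 the closest to the controls, and the log2 fold change was 0.21 (SE 0.069, adjusted p = 0.0171 from the same test). CCNE2 overlaps INTS8 and CDK4 overlaps TSPAN31 on the opposite strand, and the counting used strand. The CCNE1 to CCNE2 ratio of RPKM was 1.51 ± 0.0894 in control and 1.45 ± 0.137 in treated cells (SD, n = 3 each; exact two-sided permutation test, p = 0.6), so the E-type cyclins were not shown to differ from each other in response.

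The CCNE2 call was the least stable of those made. Its adjusted p was 0.0571 with DESeq2, the method that the study used. With edgeR, without control replicate 1, control replicate 2, SMIP34 replicate 1 or SMIP34 replicate 3, it was 0.0640, 0.0558, 0.0782 and 0.0684. The exons of CCNE2 hold 35.4% G and C, in the lowest decile of the genes tested, which had a median log2 fold change of 0.063. With offsets that remove the trend of each library with GC content, the log2 fold change of CCNE2 was 0.14 (edgeR quasi-likelihood adjusted p = 0.116). CCNE2 passed the same test with offsets on exon length (0.22, adjusted p = 0.0124) and on length and GC content together (0.19, adjusted p = 0.0349).

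CDK4 and CDK6 bind the same D-type cyclins, and their transcripts moved in opposite directions as tested, although the fall of CDK4 did not pass once a trend with exon length was removed (log2 fold change -0.051, edgeR adjusted p = 0.146). CDK4 (chromosome 12, from 58142003 to 58146164, 8 exons) was at 221, 222 and 205 CPM in control and at 199, 197 and 202 CPM in SMIP34 replicates 1, 2 and 3. Every treated library was below every control, although control replicate 3 was only 2.73 CPM above the nearest treated library. The log2 fold change was -0.12 (SE 0.032, edgeR quasi-likelihood adjusted p = 0.00578). CDK6 (chromosome 7, from 92234235 to 92465941, 9 exons) was at 8.71, 8.05 and 7.46 CPM in control and at 12.1, 10.8 and 11.7 CPM in SMIP34 replicates 1, 2 and 3, from counts of 155 to 265 per library. The groups were apart by 2.07 CPM, more than the SD of 0.624 or 0.677 CPM within them, and the log2 fold change was 0.52 (SE 0.098, adjusted p = 0.000181 from the same test). On its 95% interval the increase in CDK6 lay between 24.4 and 64.6%.

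Per length, CDK4 exceeded CDK6 by 219-fold ± 9.97 in control and by 141-fold ± 7.39 in treated cells (SD, n = 3 each), with no overlap between the groups (exact two-sided permutation test, p = 0.1, the smallest that 3 against 3 libraries allow). CDK6 thus made up 0.456% ± 0.0212 of the RPKM of both kinases in control and 0.705% ± 0.0363 in treated cells. Their summed RPKM followed CDK4, at 150 ± 6.84 in control and 139 ± 1.84 in treated cells (SD, n = 3 each). The ratio of CCND1 to CDK4 rose from 1.24 ± 0.0755 to 1.46 ± 0.0237 in mean RPKM, again without overlap (exact permutation p = 0.1). These ratios were taken without the length offsets.

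The promoters of CDK4 and CDK6 are shown because these transcripts went opposite ways as tested, without the length offsets. The sequences are those of RefSeq on GRCh38.p14, 250 bases upstream of the annotated transcription start, 5′ to 3′ on the minus strand, and capitals mark the E-box CACGTG, the motif bound by MYC and related factors. CDK4 lies on chr12:57752311-57752560, and the windows of the CDK6 starts lie on chr7:92836574-92836823 and chr7:92833960-92834209.
CDK4: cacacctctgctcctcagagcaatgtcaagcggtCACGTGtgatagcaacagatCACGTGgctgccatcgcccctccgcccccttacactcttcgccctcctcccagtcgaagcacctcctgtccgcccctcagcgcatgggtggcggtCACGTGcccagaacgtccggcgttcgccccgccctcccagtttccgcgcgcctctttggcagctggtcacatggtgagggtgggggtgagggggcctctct
CDK6, outer start: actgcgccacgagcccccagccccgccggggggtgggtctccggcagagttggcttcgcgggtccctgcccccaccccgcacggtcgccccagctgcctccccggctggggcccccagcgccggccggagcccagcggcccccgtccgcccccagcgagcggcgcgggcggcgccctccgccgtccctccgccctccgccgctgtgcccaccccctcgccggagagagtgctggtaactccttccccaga
CDK6, inner start: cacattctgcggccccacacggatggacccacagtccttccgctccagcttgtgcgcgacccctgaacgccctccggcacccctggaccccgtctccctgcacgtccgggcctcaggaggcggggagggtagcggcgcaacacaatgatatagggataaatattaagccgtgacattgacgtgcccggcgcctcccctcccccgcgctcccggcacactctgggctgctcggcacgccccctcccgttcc
The CDK4 window holds 3 E-boxes, 216, 196 and 101 bases before the start, and neither CDK6 window holds one. Of 35116 such windows, 6.34% hold at least 1 E-box. The set of promoter sequences used held 12 windows for 7 of the 10 genes, and E-boxes were otherwise found only in 2 windows of CDKN2C. CCND1, CCND2 and CCNE2 had no entry in that set. An E2F motif, TTTNNCGC on either strand, was in none of the 12 windows and in 5.92% of all windows, and the AP-1 motif TGANTCA was likewise in none and in 6.57% of all. The GC box GGGCGG, on either strand, was found 3 times in the CDK4 window, 3 times at the outer CDK6 start and 0 times at the inner one, and 42.6% of all windows hold it. None of the other motifs searched overlapped an E-box in these windows.

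CDK4 and CDK6 also stand at opposite ends of the group in exon length, 1443 and 11762 bases, and fold changes in these libraries moved with exon length. The median log2 fold change of all tested genes was -0.10 in the 1341 genes with the shortest exons (decile 1) and 0.12 in the 1341 with the longest (decile 10), which include CDK6. In decile 10, 39.6% of genes were called higher. In decile 2, which includes CDK4, the median was -0.073 and 28.0% were called lower. With offsets that remove the trend of each library with length, CDK4 had a log2 fold change of -0.051 (SE 0.027, edgeR quasi-likelihood adjusted p = 0.146) and no longer passed. CDK6 kept its call at 0.37 (SE 0.10, adjusted p = 0.00466) but fell under the fold limit, and with length and GC offsets together it was at 0.35 (adjusted p = 0.00737). The fold limit was also missed for CDK6 without control replicate 3 (0.47) and without SMIP34 replicate 1 (0.48). With length offsets, CCNE1 (log2 fold change 0.20, adjusted p = 0.0169) and CDKN1B (0.11, adjusted p = 0.0182) passed the test. CCND1 (0.085) and CCND3 (0.19) kept their calls, and none of the 9 genes was called lower. That fit called 4222 of all 13408 tested genes in either direction.

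**Figure D2:**
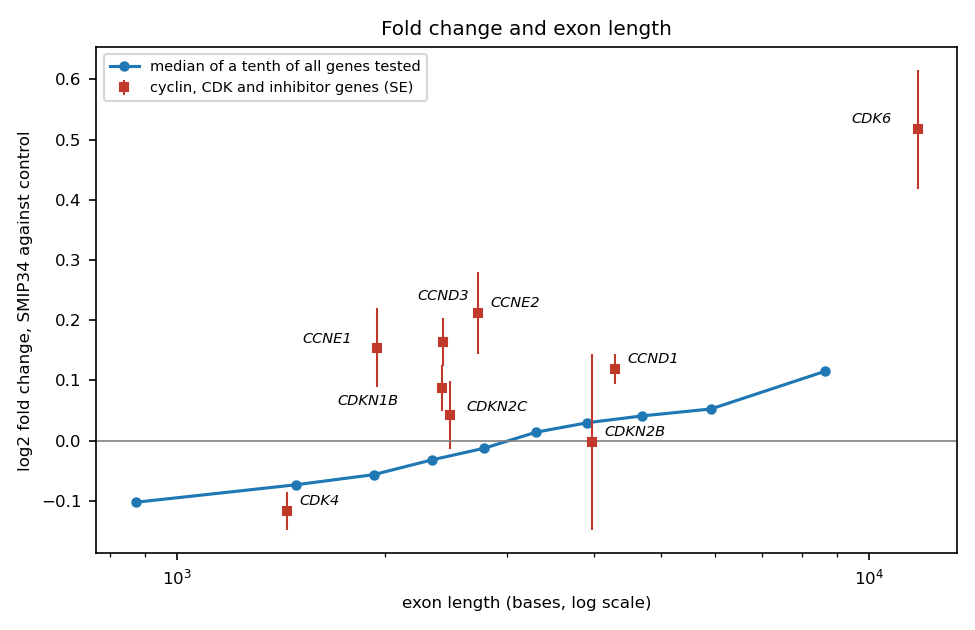
Log2 fold change of SMIP34 against control cells is plotted against exon length on a log scale, with the 9 tested genes in red (bars: standard error) and the median of each decile of all tested genes in blue. CDK6 lies far above the blue line and CDK4 close to it, while the cyclins lie above it.

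**Figure D3:**
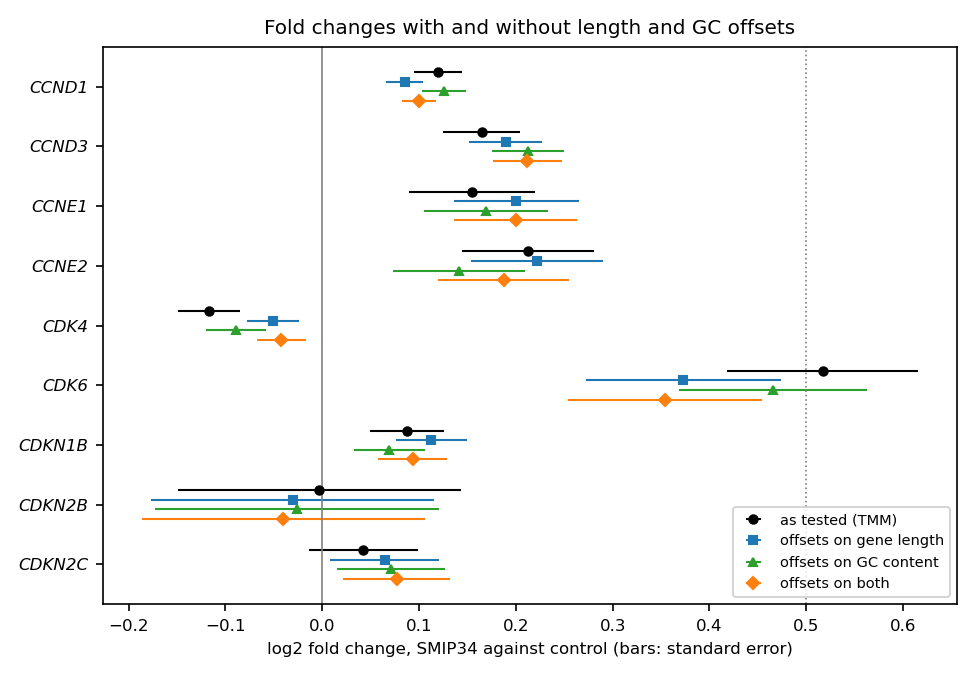
For each of the 9 tested genes, the log2 fold change and its standard error are shown as tested and with offsets on length, on GC content and on both, and the dotted line marks the fold limit of 0.5. CDK4 moves toward 0, from -0.12 to -0.042 with both offsets, and CDK6 falls from 0.52 to 0.35, while CCND1 and CCND3 stay between 0.085 and 0.21.

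CDKN1B (chromosome 12, from 12870302 to 12875305, 3 exons) was the most abundant inhibitor transcript of the group. It was at 83.8, 78.2 and 85.0 CPM in control and at 87.0, 87.8 and 87.5 CPM in SMIP34 replicates 1, 2 and 3. The treated libraries were all higher than the controls, but the log2 fold change of 0.087 (SE 0.038, edgeR quasi-likelihood adjusted p = 0.0777) did not pass. With 1 library left out, CDKN1B passed the same test only without control replicate 3 (0.11, adjusted p = 0.0279). Without control replicate 2 its log2 fold change was 0.052 (adjusted p = 0.358).

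The INK4 inhibitors of the group did not pass either. CDKN2B (chromosome 9, from 22002902 to 22009312, 2 exons), which TGF-beta induces in epithelial cells, was at 4.12, 4.60 and 5.63 CPM in control and at 5.38, 4.58 and 4.39 CPM in SMIP34 replicates 1, 2 and 3. The groups overlapped fully, with a log2 fold change of -0.0029 (SE 0.15, adjusted p = 0.990), and the 95% interval, from -18.9 to 22.9%, leaves room for changes as large as those called in CCND1 or CCNE2. CDKN2C (chromosome 1, from 51434367 to 51440309, 3 exons) was at 28.6, 27.4 and 27.3 CPM in control and at 28.3, 27.9 and 29.5 CPM in treated replicates 1, 2 and 3. These groups overlapped too, and the 95% interval of its log2 fold change of 0.043 (adjusted p = 0.607 from the same test) ran from -5.00 to 11.7%.

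The other CDK inhibitors examined were CDKN1A (p21), CDKN1C (p57) and CDKN2D (p19). CDKN1A was at 6.13, 5.66 and 6.64 CPM in control and at 11.3, 11.9 and 11.7 CPM in SMIP34 replicates 1, 2 and 3, with no overlap and a log2 fold change of 0.92 (SE 0.10, edgeR quasi-likelihood adjusted p = 1e-07). It thus moved from 0.0750 ± 0.00318 to 0.134 ± 0.00334 of the RPKM of CDKN1B (SD, n = 3 each). CDKN2D, an INK4 inhibitor like CDKN2B and CDKN2C, rose from a mean of 12.6 (SD 0.537) to 15.4 (SD 0.990) CPM over 3 libraries each, or by 0.30 on the log2 scale (SE 0.082, edgeR quasi-likelihood adjusted p = 0.00633). CDKN1C, with a mean of 15.4 CPM without and 15.2 CPM with SMIP34, did not pass.

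Among the other genes of the G1/S pathway and of later phases, 66 were listed and tested. Of these, 21 rose and 2 fell past the adjusted p-value, or 34.8% in all against 34.6% of all tested genes. By direction, 17.4% of all tested genes were higher and 17.2% were lower. The shares of 34.8 and 34.6% are those of the fit as tested. With length offsets, 28 of the 66 listed genes passed (23 higher and 5 lower), beside 4222 of all 13408 tested genes. With GC offsets it was 27 (21 higher and 6 lower), beside 4426 of all. With length and GC offsets together it was 29 (22 higher and 7 lower), beside 4182 of all. CDK2 itself stood at 109 ± 0.735 CPM without and 115 ± 2.49 CPM with SMIP34 (SD, n = 3 each, edgeR adjusted p = 0.0773) and did not pass. CDC25A, the phosphatase that activates CDK2, was the gene that changed among the 5 of the CDK2 and activator list, with a log2 fold change of 0.33 (SE 0.047, edgeR quasi-likelihood adjusted p = 3.81e-06). Of 11 pocket protein and E2F genes, RB1 (log2 fold change 0.13) and E2F2 (0.14) rose and 9 did not pass. Of 10 genes of the ubiquitin ligases that degrade G1 cyclins or p27, AMBRA1 (0.18), which targets D-type cyclins, and DDB1 (0.10) rose. SKP2, the p27 ligase subunit, had a log2 fold change of 0.027 (edgeR quasi-likelihood adjusted p = 0.747). Genes called higher were 20% of the CDK2 and activator list, 18.2% of the pocket protein and E2F list and 20% of the ligases. These shares were near the 17.4% of all tested genes.

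Of 11 transcription factors known to act on these promoters, 4 rose and none fell, against 17.4% higher and 17.2% lower of all tested genes. ZBTB17, an activator of CDKN2B, had the largest increase with a log2 fold change of 0.23, FOXO3, an activator of CDKN1B, was also at 0.23, and SMAD3 and CTNNB1 were at 0.17 and 0.088. MYC stood at 148 ± 3.68 CPM without and 148 ± 2.41 CPM with SMIP34 (SD, n = 3 each), with a log2 fold change of 0.00048 (SE 0.032, edgeR quasi-likelihood adjusted p = 0.992).

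Of 16 E2F targets of S phase, 5 were higher and 2 lower, with a median of 0.0088 and against 17.4 and 17.2% of all tested genes. CDC6, the replication licensing factor, had the largest increase of this list, a log2 fold change of 0.25. Of 10 G2/M genes, 5 were higher and none was lower, beside 17.4% higher and 17.2% lower among all tested genes, with BUB1 and MKI67 both at 0.35 and a median of 0.078. MKI67 and FOXO3 were, like CDK6, in the decile with the longest exons, and what part length had in their changes was not tested.

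**Figure D4:**
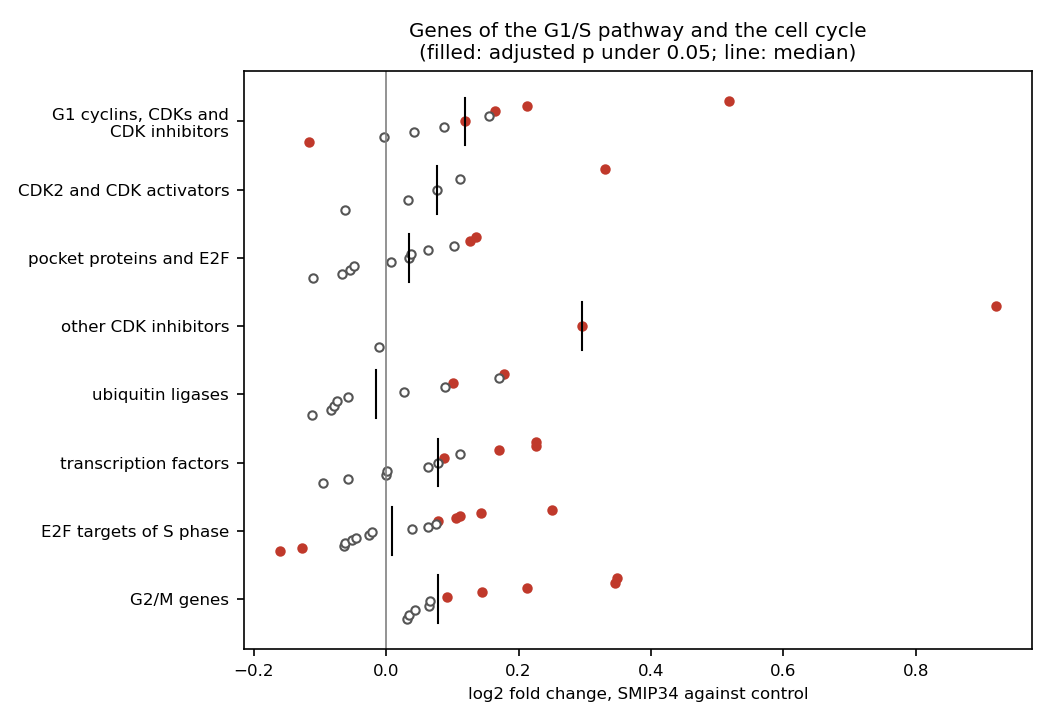
Each point is the log2 fold change of a tested gene, arranged by list, filled red at an adjusted p-value under 0.05 and open otherwise, with a black line at the median of the list. CDK6 at 0.52 and CDKN1A at 0.92 lie farthest to the right, and CDK4 is the only filled point below 0 outside the E2F targets of S phase.

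The transcripts whose log2 CPM followed CDK6 most closely over the 6 libraries, among 12604 other genes that averaged 1 CPM or more, were C7orf68, CYP1A1 and PPP1CC. Their Pearson correlations with CDK6 were 0.997, 0.996 and 0.996. C7orf68, also known as HILPDA and induced by hypoxia, rose from 18.4 to 28.7 CPM, CYP1A1, a cytochrome P450 induced through the aryl hydrocarbon receptor, from 8.07 to 11.4 CPM, and PPP1CC, a catalytic subunit of protein phosphatase 1, from 224 to 243 CPM. The libraries form a control and a treated cluster and share their scaling, so these values are a description only.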

How the data were processed

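HEC-1-A cells were profiled by RNA-seq in 3 control and 3 SMIP34-treated libraries, grouped by their labels. The values are estimated counts, which the authors deposited without normalization. Per the file headers, featureCounts 1.5.0-p1 summed reads of the matching strand, with a mapping quality of at least 2, over the exons of UCSC hg19 genes and divided reads with several matches into fractions. The submitters' processing notes name HISAT2, whereas the methods of the study name tophat2 and HTSeq. Counts were rounded, genes with few counts were removed with filterByExpr, and libraries were scaled by TMM (CPM and RPKM use this scaling). The comparison used edgeR 4.0.16 (quasi-likelihood) under R 4.3.3. P-values were adjusted by Benjamini-Hochberg over the 13408 tested genes, and the procedure was tested on simulated data. Standard errors were derived from the F statistic. RPKM used the exon lengths of the tables. The floor of 3 counts covers counting error only. Replicates of a group differed by more than counting noise (chi-square per gene 1.89 to 3.17).

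The genes and lists were chosen with earlier results of these data known. The genes named were the 10 genes, the largest changes of each other list, partners that a sentence needed, and the 3 genes most correlated with each gene past the fold limit. A gene that this rule names is not reported here. FOXO3, SMAD3, CTNNB1, RB1, E2F2, DDB1, KRT8, PAX8 and other called genes of short lists were named beside them after their values were seen. As alternatives, DESeq2 1.42.0 was run plain and with a normal prior, beside limma 3.58.1 voom, the legacy quasi-likelihood method, other scalings and filters, the replicate number as a block, loess offsets (span 0.3) on exon length, and leaving out each library. Offsets on GC content, from GRCh37, were added after the data were seen. Figures were drawn with matplotlib 3.10.9.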

Additional observations from a re-analysis of the deposited data

How the results depend on the processing

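CCND1, CCND3 and CDK6 kept their direction and their calls by the adjusted p-value in all 18 alternatives, and CDKN2C passed in none. The count of genes past the fold limit was 117 (69 higher and 48 lower) with the normal prior of DESeq2, which shrinks fold changes by construction, against 444 as tested. Of the 10 genes, 0 passed the fold limit with that prior, with offsets on length, on GC content or on both, and with 1 library left out the count lay between 0 and 1. The count of lower genes among the 10 was 0 with offsets on length and on length and GC content, since CDK4 no longer passed (-0.051 and -0.042). Those fits called 4222 and 4182 of the 13408 tested genes in either direction. CCNE1 passed in 5 and CDKN1B in 4 of the 18 alternatives, and CCNE2 in 11. The log2 fold change of CDKN2B, which passed in none, changed sign with limma voom (0.0028) and library size scaling (0.016), and lay between -0.096 and 0.13 with 1 library left out. The cause of these changes was not tested. With the replicate number as a block, 4432 of the 13408 tested genes passed the adjusted p-value and 453 also passed the fold limit. Of the 9 tested genes of the group, 4 were higher, 1 was lower and 1 passed the fold limit, and no call on them changed. Same-numbered libraries of the groups had correlations of -0.028, 0.033 and -0.011 in their deviations. No pairing by number was detected, which does not exclude that such libraries were handled together. Depth limits CDKN2B, CDK6 and CCND2 most, with 80 to 118, 155 to 265 and 0 to 1 counts per library.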
